A study of Homo sapiens with 6 samples.

Results

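Granins are acidic secretory proteins that are packed with prohormones into dense core vesicles, and they are the standard tissue markers of neuroendocrine cells. The genes described here are the granins CHGA, CHGB, SCG2, SCG3 and VGF, the granin-like chaperone gene SCG5, the prohormone convertase genes PCSK1 and PCSK2, the vesicle membrane gene SYP and the transcription factor gene INSM1. They were chosen by name, with earlier results of these arrays known, and where a gene had several probe sets the one selected was that with the highest log2 level averaged over the 6 arrays. The rule for probe sets thus used that level, which is given as a description, and not the difference between the groups. The choice of the genes by name may have drawn on that difference, since earlier results were known. The platform annotation held 8 of the 10 symbols, so 8 of the 14884 genes with a probe set are described, and PCSK1 and PCSK2 are not analysed here. No gene was removed for a low value, so all 8 entered the test. SYP had 2 probe sets and each of the other genes had 1.

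The cells were SKOV3, an established human ovarian carcinoma line, grown for 11 days in McCoy's 5A medium with 15% serum. In the 3D group the plates were low-attachment 96-well plates and the medium carried 0.015% (w/v) FP001, an additive for which the labels give a code name and nothing more (n = 3). In the 2D group the cells grew on ordinary attachment plates in normal medium without FP001 (n = 3), and the protocol names Milli-Q water as the counterpart of FP001. Plate and additive differed together between the groups and cannot be told apart. The labels do not say whether replicates were separate cultures, so the p-values may rest on technical spread alone.

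In a secretory cell of the regulated pathway, granins aggregate in the trans-Golgi network and help to form the dense core vesicle. Proprotein convertases and carboxypeptidases then cut the granins and the hormone precursors into peptides inside the vesicle, and a calcium signal releases them. In epithelial tissues outside the endocrine organs, scattered neuroendocrine cells use the same genes, and in many other cell types the repressor REST keeps them low.

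Promoter windows from RefSeq (GRCh38.p14), each running from 250 bases before to 50 bases after a gene's start, were found for 5 of the 8 measured genes, CHGA, SCG3, SCG5, VGF and SYP. Below are the 100 bases before the start of the granin gene that rose most, of a granin gene that did not pass the test, and of the gene that fell. They are printed in the direction of the gene. Capitals mark the palindrome TGACGTCA, the full cyclic AMP response element, in CHGA and VGF, and its core TGACG in SCG5.
CHGA (chr14:92923050-92923149, plus strand): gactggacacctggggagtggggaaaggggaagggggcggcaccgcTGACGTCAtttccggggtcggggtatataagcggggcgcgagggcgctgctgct
VGF (chr7:101165570-101165669, minus strand): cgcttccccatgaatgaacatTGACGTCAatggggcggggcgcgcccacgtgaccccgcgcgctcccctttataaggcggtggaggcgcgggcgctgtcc
SCG5 (chr15:32641610-32641709, plus strand): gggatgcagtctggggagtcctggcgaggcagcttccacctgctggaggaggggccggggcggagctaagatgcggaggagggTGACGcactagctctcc

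The full element TGACGTCA, searched on both strands, began 54 bases before the start of CHGA and 79 bases before that of VGF. It was present in 1.85% of the 35116 promoter windows in the RefSeq table, and in 2 of the 5 windows of these genes. The core TGACG, which every full element contains on both strands, was present in 24.6% of all windows and in 4 of the 5 (CHGA, VGF, SCG3 and SCG5). A match of letters is a description of the window and not a bound site. In SCG3 separate matches to both parts of the RE1 element, the sequence that REST binds, lay just after the gene's start. They are shown because REST levels are given further on, and whether REST binds the parts at the spacing found here was not tested. Capitals mark TTCAGCACC and GGACAGC, 8 bases apart, beginning at bases 9 and 26 of the gene.
SCG3 (chr15:51681511-51681534, plus strand): TTCAGCACCcacagggcGGACAGC
Alone, TTCAGCACC was present in 0.376% of all windows and GGACAGC in 6.03%, on either strand. A window holding both, at any spacing and in any order, made up 0.0683% of the table. Among the other 4 windows, VGF held GGACAGC, and none of the 4 held TTCAGCACC.

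All values below are log2 RMA values, and each change is 3D minus 2D on that scale. A gene was called when its limma p-value, after Benjamini-Hochberg adjustment for all 14884 genes, lay under 0.05. Levels are compared between arrays and not between genes, since probe sets differ in their response, and no detection calls are at hand. The mean lower quartile of the arrays over all probe sets was 2.93 and the mean median 4.33. Correlations across genes were 0.995 between 3D replicates 2 and 3, 0.988 between 3D replicate 1 and each of them, 0.991 to 0.993 within 2D and 0.975 to 0.982 between groups, so 3D replicate 1 stood somewhat apart within its group.

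Of the 8 measured genes 2 rose in 3D, CHGA and SCG2, and 1 fell, SCG5, while 5 did not pass. Thus 37.5% of these genes were called, against 10.0% of all genes. By direction 25% rose, against 5.23% of all genes, and 12.5% fell, against 4.77%. The genes were chosen with results of these arrays known, so these shares describe the set and are no independent evidence. The median change of the 8 genes was -0.016 against -0.0074 over all genes, and the median absolute change was 0.10 against 0.15. The called genes therefore stood beside a majority of members with changes smaller than that of the median gene. The groups did not overlap for these same 3 genes, against 29.2% of all genes. By direction all 3D arrays lay above all 2D arrays for 2 of the 8 (13.8% of all genes) and below them for 1 (15.3% of all genes).

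CHGA, encoding chromogranin A, the granin most used as a neuroendocrine marker and the precursor of the peptides vasostatin, pancreastatin and catestatin, rose most. It read 7.37, 7.82 and 7.77 in 3D, against 5.32, 5.50 and 5.18 in 2D. Every 3D array lay well above every 2D array, and 3D replicate 1 was the lowest of the 3D arrays. The means were 7.65 ± 0.25 in 3D and 5.33 ± 0.16 in 2D (SD, n = 3 each). The change was 2.32 ± 0.15 (SE), which is 4.99-fold higher in 3D (limma, adjusted p = 0.000170), with a 95% interval of 1.97 to 2.66. By absolute change CHGA ranked 43 among the 14884 genes. The arrays measure bulk RNA, so more cells with CHGA transcripts and more transcripts per cell cannot be told apart. Leaving out any single array kept the call, with changes of 2.23 to 2.46 and adjusted p-values of 0.000198 to 0.00242 (limma). A test with unequal variances that shares no variance between genes gave an adjusted p of 0.0513 for the same change, just above the threshold.

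**Figure D1:**
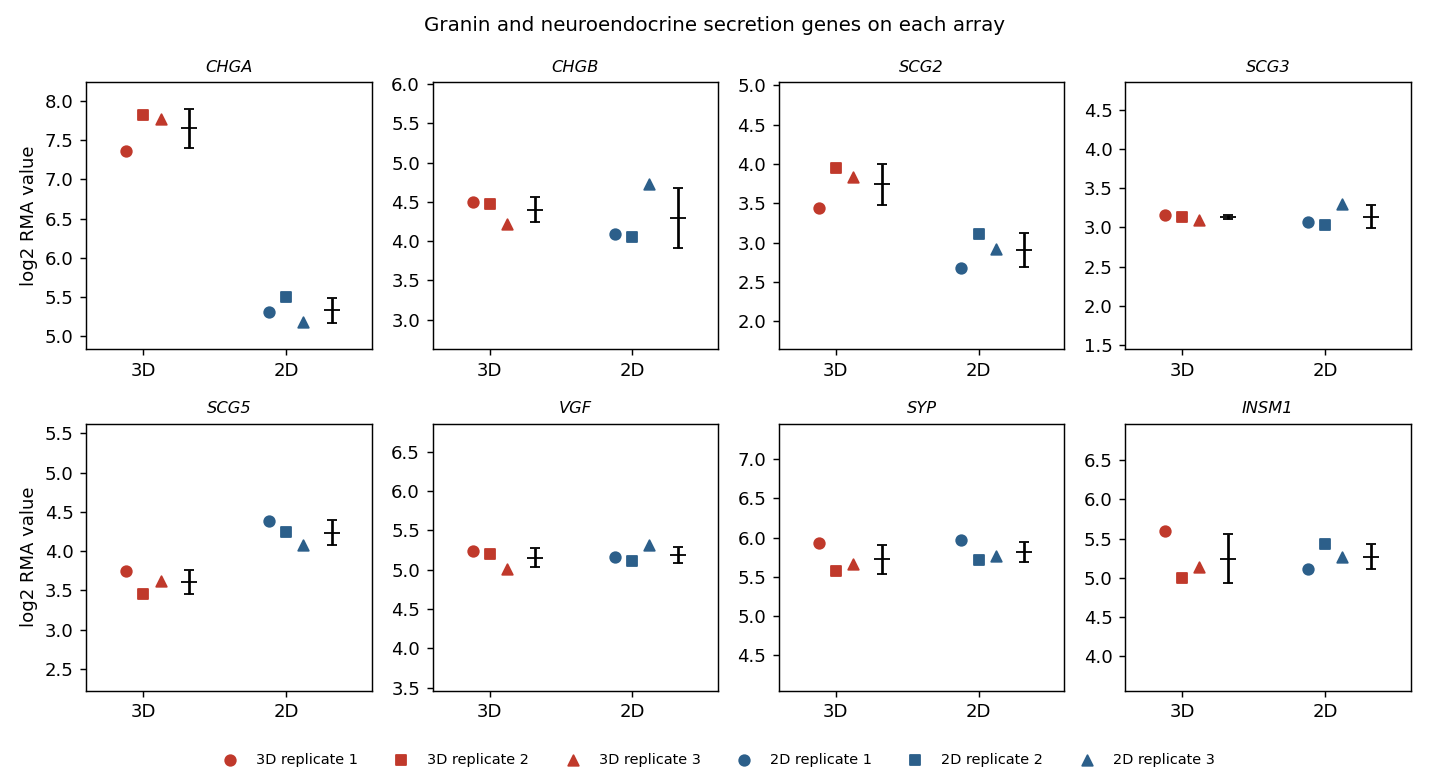
Log2 RMA values of the 8 measured genes on each array, with 3D arrays in red and 2D arrays in blue, symbols for replicates, and black bars for mean ± SD (n = 3); each panel spans the same number of log2 units. The 3D points of CHGA (7.37 to 7.82) and SCG2 (3.44 to 3.94) lie above all 2D points, those of SCG5 (3.45 to 3.75) lie below them, and the points of the other 5 genes overlap.

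SCG2, encoding secretogranin II, the precursor of the neuropeptide secretoneurin, also rose. Its values were 3.44, 3.94 and 3.83 in 3D, against 2.68, 3.11 and 2.92 in 2D. The groups did not overlap, and the arrays nearest to each other were 3D replicate 1 and 2D replicate 2. The change was 0.84 ± 0.17 (SE, n = 3 per group), or 1.79-fold higher in 3D (limma, adjusted p = 0.0196), with a 95% interval of 0.45 to 1.22. The 2D mean of 2.90 ± 0.22 (SD) lay under the lower quartile of the arrays, where RMA changes are compressed. The call was kept without 3D replicate 1 (change 0.99, adjusted p = 0.00805) and without 2D replicate 2 (0.94, adjusted p = 0.0333). It was lost without 3D replicate 2, 3D replicate 3, 2D replicate 1 or 2D replicate 3, with adjusted p-values of 0.0730, 0.0777, 0.0690 and 0.0667 and changes of 0.72 to 0.85.

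CHGB, SCG3 and VGF, the remaining granin genes measured, did not pass. CHGB, encoding chromogranin B, a granin stored together with chromogranin A, read 4.50, 4.48 and 4.22 in 3D, against 4.09, 4.06 and 4.73 in 2D. The highest value belonged to 2D replicate 3 and the lowest to the other 2D arrays, so the groups overlapped. Among all genes the mean level of CHGB stood at percentile 27.8. The change was 0.11 ± 0.19 (SE, n = 3 per group; limma, adjusted p = 0.813), and its interval of -0.34 to 0.55 leaves room for small changes in either direction. SCG3, whose product secretogranin III tethers chromogranin A to the vesicle membrane, read 3.15, 3.13 and 3.10 in 3D, against 3.07, 3.03 and 3.30 in 2D, close to the lower quartile of the arrays. Its change was -0.0077 ± 0.10 with an interval of -0.25 to 0.23 (limma, adjusted p = 0.978). VGF, a nerve growth factor-inducible gene whose product is a source of several neuropeptides, read 5.24, 5.20 and 5.01 in 3D, against 5.16, 5.12 and 5.31 in 2D. The 2D values lay within or just above the span of the 3D values, and the change was -0.043 ± 0.11 with an interval of -0.29 to 0.20 (limma, adjusted p = 0.868). On the log2 RMA scale the interval of VGF ended below the lower end of the CHGA interval (1.97), though probe sets differ in their response.

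SCG5 encodes the protein 7B2, which binds the convertase encoded by PCSK2 and escorts it through the secretory pathway. It was the only measured member that fell. It read 3.75, 3.45 and 3.62 in 3D, against 4.39, 4.25 and 4.07 in 2D. All 3D values were lower than all 2D values, with 3D replicate 1 the nearest to the 2D range. The means were 3.61 ± 0.15 in 3D and 4.24 ± 0.16 in 2D (SD, n = 3 each), a change of -0.63 ± 0.12 (SE), or 1.55-fold lower in 3D (limma, adjusted p = 0.0182). The 95% interval was -0.92 to -0.34. Both means lay under the median of the arrays, which is taken over all probe sets. Among all genes the mean level of SCG5 stood at percentile 21.2, so this is a dim probe set. The call was kept without 3D replicate 1 (change -0.70, adjusted p = 0.0170) and without 2D replicate 3 (-0.71, adjusted p = 0.0274). It was lost without 3D replicate 2, 3D replicate 3, 2D replicate 1 or 2D replicate 2, with adjusted p-values of 0.0738, 0.0663, 0.0654 and 0.0668 and changes of -0.64 to -0.55. For CHGA, SCG2 and SCG5 alike, 3D replicate 1 was the 3D array nearest to the 2D values, and without it all 3 calls were made with larger changes. Its part in the size of the changes beyond that was not tested.

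**Figure D2:**
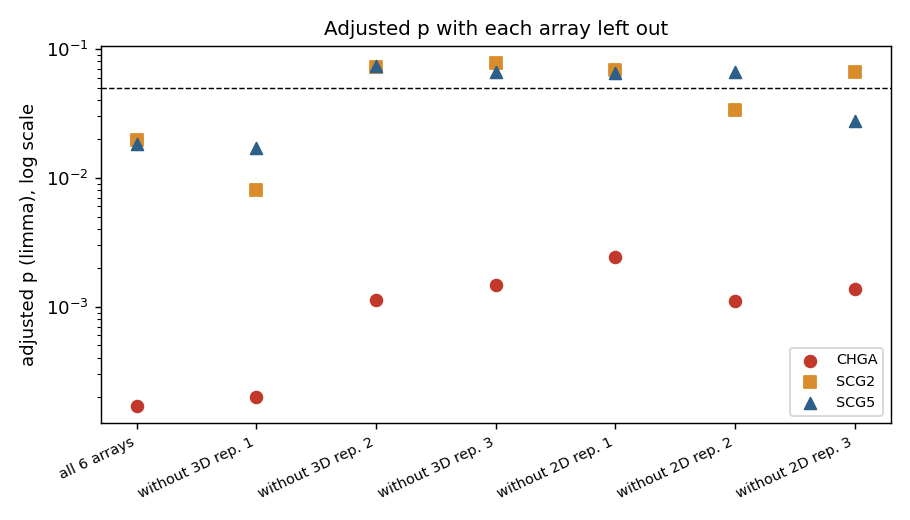
Adjusted p-values (limma, vertical log axis) of CHGA, SCG2 and SCG5 with all 6 arrays and with each array left out in turn (horizontal axis); the dashed line marks 0.05. CHGA stays between 0.000170 and 0.00242, whereas SCG2 and SCG5 each lie above the line without 4 of the 6 arrays.

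SYP encodes synaptophysin, an abundant membrane protein of small synaptic-like vesicles, and INSM1 encodes a zinc finger repressor needed for neuroendocrine differentiation in mice. SYP read 5.93, 5.57 and 5.67 in 3D, against 5.96, 5.72 and 5.77 in 2D. The arrays of both groups spanned nearly the same range, and the change was -0.093 ± 0.13 (SE, n = 3 per group; limma, adjusted p = 0.737), with an interval of -0.39 to 0.20. The dimmer second probe set of SYP gave 4.66, 4.17 and 4.69 in 3D, against 4.29, 4.27 and 4.71 in 2D, a change of 0.082 in the opposite direction that did not pass either. INSM1 read 5.59, 5.00 and 5.14 in 3D, against 5.11, 5.44 and 5.27 in 2D. The 3D arrays held both the highest and the lowest value. The change was -0.025 ± 0.17 with an interval of -0.42 to 0.37 (limma, adjusted p = 0.956). On the log2 RMA scale a change as large as that of CHGA lies outside the intervals of both genes. The intervals do not cover differences in probe set response, so the RNA changes themselves cannot be compared this way.

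**Figure D3:**
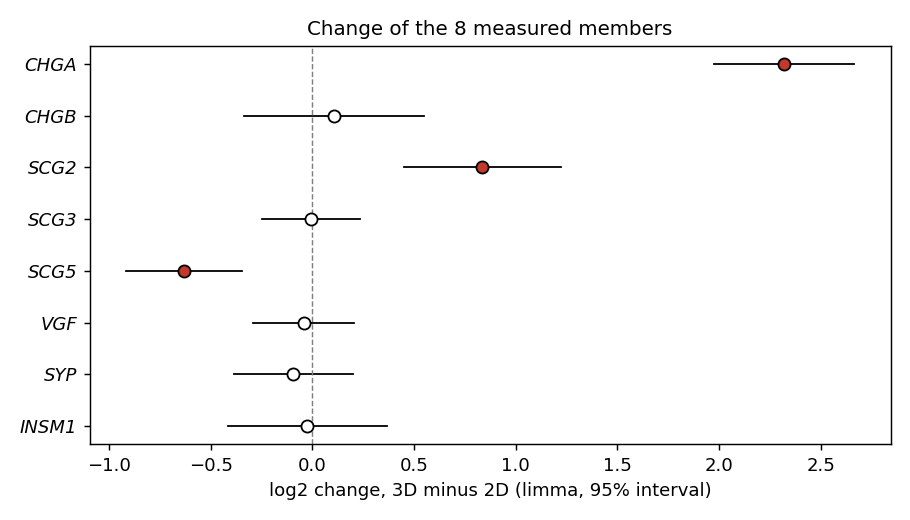
Log2 change, 3D minus 2D, of the 8 measured genes (points) with 95% limma intervals (lines); filled points have an adjusted p under 0.05. CHGA (2.32) and SCG2 (0.84) lie right of 0 and SCG5 (-0.63) left of it, whereas the intervals of CHGB, SCG3, VGF, SYP and INSM1 include 0.

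The enzymes that process granins and prohormones gave 3 rises and 0 falls among 13 measured genes of a list of 15, or 23.1% called against 10.0% of all genes (limma). Most of these 13 genes lay above the median level of all genes. Tested alone, the genes at or above that median gave 1731 calls, against 1488 among all genes. The background share is not matched for level, here or for the lists that follow. At an unadjusted p under 0.05, 7 genes of the list were higher and 1 was lower, where 23.5% of all genes had such a p (11.5% higher and 11.9% lower). By the test with unequal variances, which called 82 of all genes, 0 genes passed in this list and in the 6 lists that follow, so every call given for them rests on limma's shared variance. CPE, the carboxypeptidase that trims the basic residues left by the convertases, read 8.41, 8.32 and 8.42 in 3D, against 6.76, 7.23 and 7.25 in 2D. All 3D values exceeded the highest 2D value by about 1 unit, and the change was 1.30 ± 0.14 (SE, n = 3 per group; limma, adjusted p = 0.00145). The convertase gene PCSK5 read 6.29, 6.40 and 6.36 in 3D, against 5.74, 5.69 and 5.72 in 2D (0.63 ± 0.087, limma adjusted p = 0.00395). CTSL, encoding cathepsin L, a lysosomal protease that also cuts prohormones in secretory vesicles, rose by 0.44 ± 0.092 (limma, adjusted p = 0.0236). CPE and PCSK5 were called without any single array (adjusted p up to 0.00930 and 0.0254), whereas CTSL was called only with all arrays or without 3D replicate 1 (adjusted p otherwise up to 0.0992). PCSK1N, encoding an inhibitor of the convertase of PCSK1, gave 0.12 (adjusted p = 0.7).

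Among 19 measured genes of 34 for dense core vesicle biogenesis and cargo sorting, 3 rose and 0 fell, or 15.8% against 10.0% of all genes (limma). At an unadjusted p under 0.05, 5 were higher and 2 were lower, against 23.5% of all genes. The 3 genes called by limma were ARFIP1, HID1 and SYNGR1. ARFIP1, a BAR-domain protein gene of the Golgi, gave 0.54 ± 0.095 (SE, limma adjusted p = 0.0117). HID1, needed for dense core vesicle maturation in worms and mice, gave 0.52 ± 0.13 (adjusted p = 0.0434). The synaptogyrin gene SYNGR1 gave 0.49 ± 0.12 (adjusted p = 0.0472). HID1 read 7.37, 7.70 and 7.63 in 3D, against 6.90, 7.01 and 7.22 in 2D, so 3D replicate 1 and 2D replicate 3 lay close together. HID1 and SYNGR1 lost the call without any array other than 3D replicate 1 (adjusted p up to 0.155 and 0.160), and ARFIP1 lost it without 3D or 2D replicate 3 (up to 0.0579). CADPS, which primes dense core vesicles for release, gave 0.024 and its paralog CADPS2 0.10. Across the fits without single arrays this list had 0 to 4 rises and 0 to 1 falls. The 4 rises and 1 fall came without 3D replicate 1, where 1899 of all genes were called against 1488.

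The exocytosis machinery, 38 measured genes of 48, had 1 rise and 2 falls, or 7.89% called, which is near the background of 10.0%. By limma 7 were higher and 4 lower at an unadjusted p under 0.05, a level that 23.5% of all genes reached. RIMS1, a scaffold gene of the presynaptic active zone, read 3.93, 3.76 and 3.77 in 3D, against 5.50, 4.80 and 4.97 in 2D (-1.27 ± 0.18 SE, n = 3 per group; limma, adjusted p = 0.00427). The synaptotagmin genes SYT15 and SYT14 gave -0.93 ± 0.12 (limma, adjusted p = 0.00339) and 0.42 ± 0.094 (adjusted p = 0.0299). RIMS1 and SYT15 were called without any single array (adjusted p up to 0.0230 and 0.0201), and SYT14 lost the call without any array except 3D replicate 1 (up to 0.127). VAMP2 (0.16) and STX1A (0.048), of the complex that fuses the vesicle with the plasma membrane, did not pass. With single arrays left out the list had 0 to 3 rises, 3 of them without 3D replicate 1, and 2 falls each time.

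Peptide hormones and their precursors moved in both directions: of 47 measured genes of 57, 4 rose and 4 fell, or 17.0% against 10.0% of all genes, with a median of -0.028. At an unadjusted limma p under 0.05, 6 were higher and 4 were lower, a smaller share than the 23.5% of all genes. The groups did not overlap for 10 of the 47, also a smaller share than the 29.2% of all genes. EDN1, the precursor gene of the vasoconstrictor endothelin 1, fell most, with 7.68, 7.76 and 7.62 in 3D, against 9.59, 9.91 and 9.26 in 2D (-1.90 ± 0.16 SE, n = 3 per group; limma, adjusted p = 0.000475). SST, encoding the inhibitory hormone somatostatin, read 5.99, 6.28 and 6.38 in 3D, against 4.99, 5.13 and 4.93 in 2D (1.20 ± 0.13, adjusted p = 0.00112). All 3D arrays lay below all 2D arrays for EDN1 and above them for SST. NMU, the neuromedin U gene, rose by 1.12 ± 0.27 (adjusted p = 0.0413), and STC1, the stanniocalcin 1 gene, by 1.04 ± 0.13 (adjusted p = 0.00252). The other called genes, named after their values were seen, were UCN2 (-0.72), BDNF (-0.70), ADM (-0.62) and NPPC (0.45). EDN1, SST, STC1, UCN2 and ADM were called without any single array (adjusted p up to 0.0469, for UCN2). BDNF and NPPC lost the call without any array except 3D replicate 1 (up to 0.118 and 0.157), and NMU without 2D replicate 2 or a single 3D array of any number (up to 0.132).

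Of 24 measured neuroendocrine transcription factor genes of 30, 2 rose and 0 fell, or 8.33%, again near the background. By limma 3 were higher and 1 lower at an unadjusted p under 0.05, against 23.5% of all genes. FOXA1, a pioneer factor of many epithelia, read 5.49, 6.06 and 6.13 in 3D, against 5.23, 5.19 and 5.13 in 2D (0.71 ± 0.17 SE, n = 3 per group; limma, adjusted p = 0.0401). The zinc finger gene MYT1 gave 0.54 ± 0.13 (adjusted p = 0.0352). FOXA1 lost the call without any array except 3D replicate 1 (up to 0.138), and MYT1 without 3D or 2D replicate 1 or 2 (up to 0.130). The lineage factor genes NEUROG3 (-0.32), NKX2-2 (0.017) and ISL1 (0.21) did not pass. With single arrays left out, 0 to 1 genes of the list rose and 0 to 1 fell, with 1 rise and 1 fall without 3D replicate 1.

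REST, the repressor of granin and other neuronal genes, read 8.61, 8.45 and 8.51 in 3D, against 8.65, 8.61 and 8.53 in 2D. The groups overlapped, and the change was -0.075 ± 0.093 (SE, n = 3 per group; limma, adjusted p = 0.712). The list, 15 measured genes of 20, held REST, its cofactors and genes that act on REST (SRRM3, SRRM4, BTRC and USP7). In it 0 passed by limma, against 10.0% of all genes, and 0 by the test with unequal variances. At an unadjusted limma p under 0.05, 1 was higher and 2 were lower, a level that 23.5% of all genes reached. The groups did not overlap for 7 of the 15, against 29.2% of all genes. With single arrays left out, 0 to 1 genes of the list rose, 1 of them without 3D replicate 1, and 0 fell.

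Other neuroendocrine and neuronal marker genes, 22 measured of 38, had 2 rises and 2 falls, or 18.2% against 10.0% of all genes, with a median of 0.00015. By limma 5 were higher and 2 lower at an unadjusted p under 0.05, against 23.5% of all genes. DPYSL3, a cytoskeletal gene of the collapsin response mediator family, read 6.78, 6.72 and 7.09 in 3D, against 8.12, 7.92 and 7.95 in 2D (-1.13 ± 0.13 SE, n = 3 per group; limma, adjusted p = 0.00146). DPYSL5, of the same family, gave -0.46 (adjusted p = 0.0301), the ubiquitin hydrolase gene UCHL1 0.46 (adjusted p = 0.0268) and the microtubule-associated gene MAP2 0.39 (adjusted p = 0.0390). DPYSL3 was called without any single array (adjusted p up to 0.0100). UCHL1 lost the call without any array except 3D replicate 1 (up to 0.109), and DPYSL5 and MAP2 without any array at all (up to 0.0937 and 0.134). The neural adhesion marker gene NCAM1 (0.23), the decarboxylase gene DDC (-0.086) and the somatostatin receptor gene SSTR2 (0.12) did not pass. With single arrays left out the list had 0 to 1 rises, 1 of them without 3D replicate 1, and 1 fall each time.

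**Figure D4:**
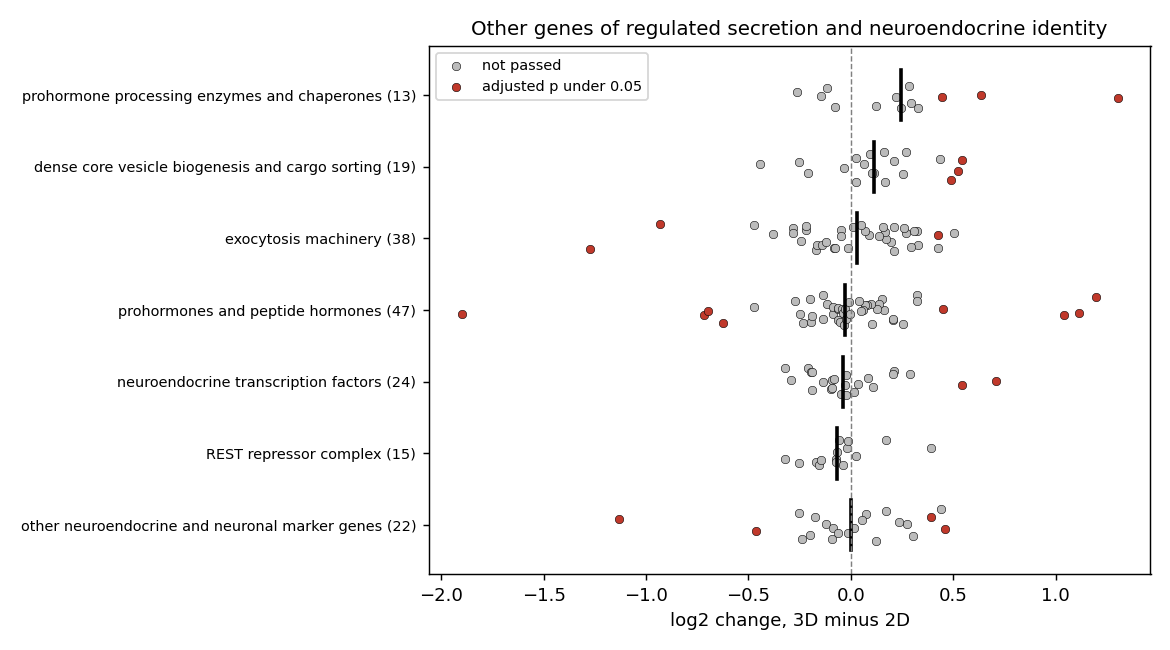
Log2 change, 3D minus 2D (horizontal axis), of the measured genes of 7 lists (rows, number measured in brackets); red points have an adjusted p under 0.05, grey points did not pass, and black bars are list medians. Called genes lie right of 0 in the processing and vesicle biogenesis lists and on both sides among peptide hormones, from EDN1 at -1.90 to SST at 1.20.

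The genes whose values followed those of CHGA most closely were found by the Euclidean distance between gene-centred log2 values over the 6 arrays. The nearest 5 were CLDN10-AS1 (distance 0.18), an antisense transcript whose separation from CLDN10 by these probes is not known here, the interferon-inducible GTPase gene GBP5 (0.21), the asparaginase-like gene ASRGL1 (0.28), the bile acid transporter subunit gene SLC51B (0.30) and the secretory-epithelium factor gene SPDEF (0.31). Their changes ran from 2.24 (SPDEF) to 2.37 (CLDN10-AS1). SPDEF read 7.43, 8.05 and 8.04 in 3D, against 5.64, 5.58 and 5.60 in 2D, with 3D replicate 1 lowest in its group as for CHGA. The measure finds genes of like change between the groups over 6 arrays and says nothing more of them.

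The labelled cell type was checked against epithelial ovarian carcinoma markers. PAX8, the Müllerian lineage factor gene, read 10.15 to 10.44 in 3D and 10.13 to 10.25 in 2D. Of 12 measured markers 6 rose and 1 fell, or 58.3% called against 10.0% of all genes (limma). Among the rises were KRT19 (2.70), EPCAM (1.76), SOX17 (1.63) and CLDN3 (1.12). The fall was KRT7 (-0.93), named after its value was seen. The mean log2 level of the list was 7.59 to 7.83 in 3D, against 6.99 to 7.04 in 2D, so the list's mean moved in the same direction as CHGA. Not all of its markers did, since KRT7 fell and PAX8, KRT8, KRT18, MSLN and WT1 did not pass. Of 6 measured leukocyte markers 3 rose, LAPTM5 (2.12), LYZ (1.83) and CD68 (0.68), or 50% called against 10.0% of all genes. The list's mean level was 5.72 to 5.85 in 3D against 5.06 to 5.07 in 2D, while TYROBP (-0.074), CD14 (-0.41) and CD163 (0.059) did not pass. Of 5 measured fibroblast and endothelial markers 1 rose, PECAM1 (1.27), so the 20% called, against 10.0% of all genes, rests on a single gene. The mean level of these markers was 4.20 to 4.46 in 3D against 4.03 to 4.13 in 2D. The part of these marker shifts in the changes of CHGA, SCG2 and SCG5 was not tested.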

How the data were processed

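Log2 values of 53617 probe sets on 6 arrays were used as deposited. Per the submitters' processing notes the authors made these values with RMA, which corrects background, equalises array distributions and summarises probe sets. Its version is not given in the sources used here. That the scale is log2 was read from the range of the values. The platform annotation named 16098 probe sets with 1 symbol, 0 with several and 37519 with none; gene IDs of all 16098 matched RefSeq (GRCh38.p14) for current symbols. It belongs to a whole-transcript array, whereas the labelling protocol names a 3′ IVT kit and 100 ng of total RNA, a mismatch left unresolved. Keeping the brightest probe set of each gene by its mean over all arrays gave 14884 genes.

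Groups were fitted with limma 3.58.1 in R 4.3.3 (lmFit, eBayes, group only, two-sided, Benjamini-Hochberg over all genes, threshold 0.05). Intervals are 95%. The fit was also run on simulated data with independent normal noise, and no result given here rests on that run. Precision is limited by the number of arrays. The members and lists were chosen with earlier results of these data known. Named were all measured members, REST, up to 4 called genes per list with the largest change, and the 5 genes nearest to the member with the largest called change; other list genes were named for their known roles or, where stated, after their values were seen. Alternatives were another normalization or centring, a dim filter, other probe set rules, the replicate number as a block, a robust trended variance, a test per gene with unequal variances, and leaving out each array.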

Additional observations from a re-analysis of the deposited data

How the results depend on the processing

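CHGA was called in 14 of 15 alternatives (changes of 2.23 to 2.46), all but the unequal-variance test. SCG2 was called in 8 of 14 and SCG5 in 7 of 14, always in the same direction; the dim filter removed 6 of the 8 members, both of these included. Members called higher numbered 1 with the dim filter, out of 2 kept, 1 with all probe sets tested singly and 0 with the unequal-variance test, and members called lower numbered 0 in each of these. The dim filter kept genes at or above the median level, and 1731 of them were called. With all probe sets tested singly the unadjusted p was 0.00249 for SCG2 and 0.00245 for SCG5, against 0.00117 and 0.00106 with 1 probe set a gene, and the adjusted p 0.0777 and 0.0769; variance and adjustment both changed. With the replicate number as a block, 760 genes were called against 1488, with 2 members higher and 0 lower (SCG5, adjusted p = 0.05003). The labels do not say that the numbers pair samples, and deviations of same-numbered arrays correlated at -0.28, -0.06 and -0.18. The unequal-variance test called 82 genes. Leaving out single arrays gave 775 to 1899 called genes, 1 to 2 members higher and 0 to 1 lower. Changes of members that did not pass turned sign for SYP with its most variable probe set (0.082), and among the fits without single arrays for INSM1 (-0.20 to 0.097), SCG3 (-0.059 to 0.076), VGF (-0.086 to 0.026) and CHGB (-0.013 to 0.32). Dim probe sets and 3 arrays per group limit what could be detected.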
